A study of Mus musculus with 45 samples.

Results

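The BAF complex (also called mSWI/SNF) is a chromatin remodeller that uses ATP to move nucleosomes, and several of its positions can be filled by paralogous subunits. Neural progenitors are known to assemble it with Actl6a, Phf10 and Ss18, and postmitotic neurons with Actl6b, Dpf1, Dpf3 and Ss18l1 at the same positions. Smarca4 and Smarca2 are the alternative ATPases, and Smarcc1 and Smarcc2 are paralogous scaffold subunits. The 10 subunits described here (Smarca2, Smarca4, Smarcc1, Smarcc2, Actl6a, Actl6b, Phf10, Dpf1, Dpf3 and Ss18l1) were chosen by name, and all 10 are among the 53491 genes listed in each of the 9 tables. Ss18 and Dpf2, a further member of the Dpf family, were followed as the paralogs against which the neuronal subunits are set.

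The libraries came from primary cortical cells of wild-type mouse embryos taken at E11.5, E14.5 or E16.5, early, middle and late in cortical neurogenesis. In SLAM-seq, RNA made while cells hold 4-thiouridine (4sU) reads as C where the genome has T, so the conversion rate of a transcript falls as its labelled copies decay. All 15 groups of 3 libraries received 100 uM 4sU for 20 h and then 5 mM uridine for 0, 2, 4, 8 or 12 h, and no untreated or mutant group was used here. Each of the 9 replicates (A, B and C at each stage) was a pool of cells from 7 embryos at E11.5 or 2 at the later stages, divided over 5 wells, 1 for each chase time. The cells were kept in culture through labelling and chase, so that a level at 0 h is that of cells cultured for the labelling period and not of freshly dissected tissue.

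Library depth ranged from 15.9 to 43.9 M reads. Markers of cortical progenitors and neurons were present at 0 h in every library. The 7 progenitor markers summed to 8212 to 8658 reads per 1e6 reads (cpm) at E11.5, 2688 to 3398 at E14.5 and then 1087 to 1205 at E16.5, and the 6 neuron markers to 2757 to 3308, 5329 to 5989 and 7328 to 7661 cpm. Most of the progenitor sum was Vim (6985, 2324 and 708 cpm at the successive stages). Other cells were present. The 4 erythroid markers summed to 1389 to 3092 cpm at E11.5 and to 31.7 to 72.9 at the later stages, the 4 mural and meningeal markers to 365 to 556 cpm at E11.5 and 11.2 to 23.9 later, and the 4 endothelial and 4 microglial markers stayed at 3.64 and 11.7 cpm or below. Within the mural and meningeal list, Dcn did not follow the fall (2.72, 8.20 and 5.45 cpm). The 4 interneuron markers summed to 32.2 to 40.7 cpm at the earlier stages and 179 to 188 at E16.5. Between E11.5 and E14.5 they did not move together. Dlx2 fell from 27.9 to 8.10 cpm and Dlx1 from 7.95 to 7.25, while Gad1 rose from 0.48 to 10.7 and Gad2 from 1.20 to 7.33. The 5 markers of oligodendrocyte precursors and astrocytes summed to 107 to 140 cpm at E11.5 and 285 to 477 later. Most of that sum was Olig1 and Olig2 (81.1 and 34.3 cpm at E11.5, 216 and 139 at E14.5, 164 and 121 at E16.5). The others on that list did not follow: Pdgfra was at 6.93, 1.42 and 17.8 cpm, Aqp4 at 1.14, 0.63 and 0.61, and Gfap at 0.20, 1.09 and 1.49. These are bulk samples, in which more cells of a type and more RNA per cell cannot be told apart, and the part that these shifts in cell composition have in the levels below was not tested.

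The Actl6a to Actl6b exchange is known to involve the neuronal miRNAs miR-9-3p (also written miR-9*) and miR-124, which act on Actl6a, and the repressor Rest, which holds those miRNAs down outside neurons. The mature miR-9-3p and the matches to its seed (bases 2 to 8) are shown because they are part of the sequence side of this exchange. The matches are those in the longest annotated 3′ untranslated region (UTR) of the 10 subunits, and the seed or its match is in capitals.
miR-9-3p: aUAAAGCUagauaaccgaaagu
Actl6a: acgtctgtAGCTTTAgtacactc
Smarcc1, upstream match: aagagcacAGCTTTAcaacaagc
Smarcc1, downstream match: tattttaaAGCTTTAtgtatgag
Smarca2: ctagaactAGCTTTAgggtagtg
The miRNA is 22 nt long and is encoded, in the RefSeq annotation of GRCm38.p6, on the plus strand at chr3:88215652-88215673 (Mir9-1), chr13:83738858-83738879 (Mir9-2) and chr7:79505318-79505339 (Mir9-3). The match in Actl6a lies at chr3:32726632-32726654 of GRCm38 on the plus strand (the 23 bases printed), and its capitals begin at base 38 of a 3′ UTR of 371 nt. The Smarcc1 matches lie at chr9:110238605-110238627 and chr9:110239433-110239455, in a 3′ UTR of 2396 nt, and the Smarca2 match at chr19:26777494-26777516, in a 3′ UTR of 952 nt, all on the plus strand. The letters AGCTTTA, searched on the sense strand alone, were not in the 3′ UTR windows of the other 7 subunits (90 to 2843 nt). Over all genes, 2373 of 21028 protein-coding 3′ UTRs (11.3%) held at least 1 match. Among the 1962 genes whose 3′ UTR is 0.8 to 1.25 times as long as that of Actl6a, 2.65% held one. For lengths like those of Smarca2 and Smarcc1 the shares were 7.56% and 19.7%. A match is a description of the sequence and not a measured site. Matches to miR-124 were not searched, because its sequence was not in the reference used.

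The actin-related subunits moved in opposite directions. Actl6a (chr3:32706298-32726973, plus strand) measured 134, 149 and 124 cpm in pools A, B and C at E11.5, 98.1, 97.1 and 91.4 at E14.5 and then 47.4, 49.7 and 43.7 at E16.5. Every stage lay below the one before it with no overlap of pools. It fell by 0.45 ± 0.07 (log2, SE) up to E14.5 (adjusted p = 0.000214) and by 0.99 ± 0.07 afterwards (4.27e-07), 2.71-fold in all (adjusted p = 2.74e-09, edgeR's quasi-likelihood test over 18408 genes). Actl6b (chr5:137553517-137569582, plus strand) measured 6.34, 9.57 and 9.96 cpm at E11.5, 32.8, 29.5 and 24.0 at E14.5 and then 66.6, 57.7 and 55.1 at E16.5, again without overlap. It rose by 1.78 ± 0.16 and then by 1.08 ± 0.16 (log2; adjusted p = 1.45e-06 and 0.000109), 7.27-fold from E11.5 to E16.5 (9.24e-09). At E11.5 Actl6b rested on 1718 to 2771 covered Ts per library, the thinnest coverage among the subunits that rose. A T counts once for each read that covers it, so these counts exceed the number of reads. The edgeR fold changes, SE and p-values here and below were fitted to covered Ts, and the levels beside them are cpm of reads. Of the 3886 exonic bases of Actl6a, 452 also lie in exons of Mrpl47 or Gm37353 on the other strand. Whether counting used the strand is not given in the sources used here, so reads from these bases cannot be assigned to a gene.

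**Figure D1:**
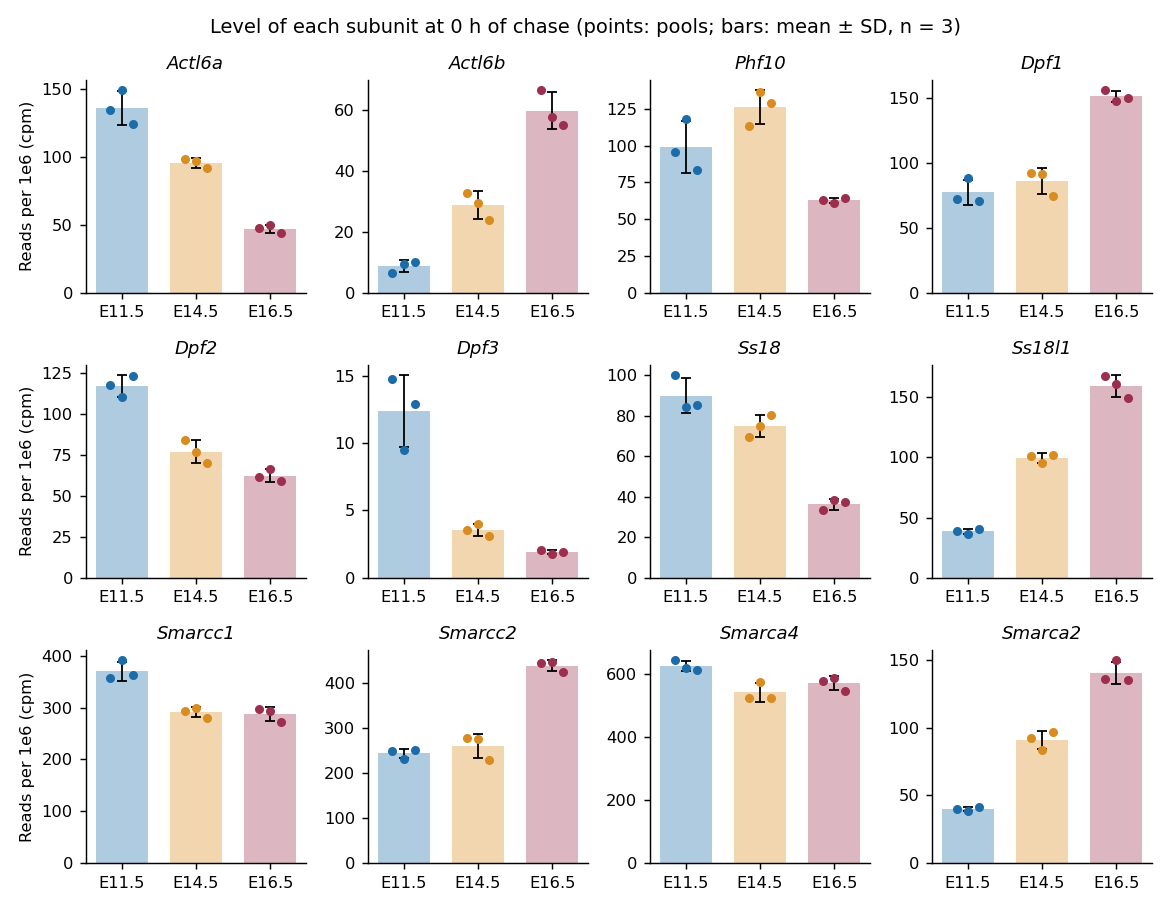
Reads per 1e6 (y axis, linear from 0, its own scale in each panel) of the 10 subunits, Ss18 and Dpf2 at 0 h of chase by stage (x axis). Points are the 3 pools, bars the mean and lines the SD. Actl6b, Ss18l1 and Smarca2 climb at each stage, Actl6a, Dpf2, Dpf3 and Ss18 decline, and Phf10 is highest at E14.5.

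The subunits that carry tandem PHD fingers or their like did not move as a class. Phf10 (chr17:14945009-14961273, minus strand) measured 95.8, 118 and 83.5 cpm at E11.5, 114, 136 and 129 at E14.5 and then 62.8, 61.0 and 64.3 at E16.5. It was higher at E14.5 than at E11.5 by 0.41 ± 0.10 (log2; adjusted p = 0.00303), although the pools of these stages overlapped, and then fell by 1.04 ± 0.10 (2.25e-06). Of its 4914 exonic bases, 470 lie in exons of 1600012H06Rik on the other strand. Dpf1 (chr7:29303951-29318243, plus strand) measured 72.4, 88.7 and 70.9 cpm at E11.5 and 92.6, 91.2 and 74.5 at E14.5, a difference of 0.20 ± 0.11 that did not pass the test (adjusted p = 0.152), and 156, 148 and 150 at E16.5. It therefore rose late, by 0.81 ± 0.11 from E14.5 to E16.5 (adjusted p = 5.30e-05). Dpf3 (chr12:83213745-83487716, minus strand) went against its place among the neuronal subunits. Its level was 14.7, 9.47 and 12.9 cpm at E11.5, 3.57, 3.99 and 3.11 at E14.5 and then 2.05, 1.73 and 1.90 at E16.5, with no overlap between stages. It fell by 1.65 ± 0.19 and 0.98 ± 0.18 (log2; adjusted p = 9.39e-06 and 0.000694), 6.21-fold in all. At E16.5 Dpf3 rested on 642 to 888 covered Ts per library, which is fewer reads than that. When the 12 h libraries were compared in place of the 0 h libraries, the E16.5 minus E14.5 difference of Dpf3 was -0.17 (adjusted p = 0.486). Dpf2, the ubiquitous member of the family, fell from 117 ± 6.60 (SD, n = 3) to 77.2 ± 7.25 and 62.6 ± 3.83 cpm, by 0.84 ± 0.08 on the log2 scale from E11.5 to E16.5 (7.77e-07).

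Ss18l1 (chr2:180042509-180070201, plus strand), known as CREST, a calcium-responsive transactivator of dendrite growth, measured 39.0, 36.4 and 40.7 cpm at E11.5, 101, 95.0 and 102 at E14.5 and then 167, 161 and 149 at E16.5. Its pools did not overlap between stages, and its rise of 2.12 ± 0.08 (log2) from E11.5 to E16.5 had the lowest adjusted p of the 10 subunits (1.60e-10). Most of it, 1.48 ± 0.08, came before E14.5 (8.49e-09), and 0.64 ± 0.08 after (1.68e-05). Its paralog Ss18 was at 90.0 ± 8.79 cpm at E11.5, 75.1 ± 5.44 at E14.5 and then 36.4 ± 2.77 at E16.5. The change of Ss18 to E14.5 did not pass the test (-0.20 ± 0.08, adjusted p = 0.0660), and it then fell by 1.03 ± 0.08 (8.53e-07).

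The scaffold and ATPase pairs were uneven. Smarcc2 (chr10:128459248-128490482, plus strand) measured 248, 231 and 251 cpm at E11.5 and 277, 274 and 229 at E14.5, overlapping ranges (adjusted p = 0.0525), and 444, 447 and 424 at E16.5, a rise of 0.74 ± 0.07 over the last step (4.66e-06). Smarcc1 (chr9:110117708-110240178, plus strand) measured 358, 392 and 363 cpm at E11.5, 294, 300 and 281 at E14.5 and then 297, 295 and 273 at E16.5. It fell by 0.27 ± 0.06 to E14.5 (adjusted p = 0.00263), and the pools of the later stages overlapped (-0.05 ± 0.06, adjusted p = 0.543). Smarca2 (chr19:26605050-26778322, plus strand) measured 39.5, 38.2 and 41.6 cpm at E11.5, 92.6, 83.8 and 96.8 at E14.5 and then 136, 150 and 135 at E16.5. It rose by 1.20 ± 0.08 and 0.66 ± 0.08 (log2; adjusted p = 5.11e-08 and 1.38e-05), 3.62-fold in all. Smarca4 (chr9:21616169-21704230, plus strand) measured 645, 622 and 612 cpm at E11.5, 526, 577 and 525 at E14.5 and then 579, 588 and 547 at E16.5. Its E14.5 pools lay below those of E11.5, and the E16.5 pools overlapped those of E14.5. None of its differences passed the test (adjusted p = 0.0829, 0.311 and 0.428 for E14.5 against E11.5, E16.5 against E14.5 and E16.5 against E11.5), and the largest was -0.13 ± 0.06 on the log2 scale.

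Counted over the 10 subunits at an adjusted p under 0.05, 4 rose and 3 fell between E11.5 and E14.5, where 25.1% of the 18408 genes tested rose and 23.5% fell. With a fold change over 2 as well, the counts were 3 and 1, beside 8.14% and 8.0% of genes. From E14.5 to E16.5, 5 were higher and 3 lower (24.1% and 25.4% of genes), and 1 (Actl6b) and 1 (Phf10) passed 2-fold (7.19% and 5.92%). The second of these counts ran from 0 to 3 when a pool was left out (0 without E14.5 replicate B, 3 without E14.5 replicate C), and the falls of Phf10, Dpf3 and Actl6a (2.06-, 1.98- and 1.98-fold) lie close to 2-fold. The first was 0 without E14.5 replicate C. From E11.5 to E16.5, 5 were higher and 4 lower (31.4% and 33.1% of genes), and 4 and 2 passed 2-fold (14.7% and 14.6%). All 10 subunits passed a filter of more than 10 covered Ts in all 9 libraries. Their median log2 fold change was 0.19, 0.36 and 0.44 in the 3 comparisons, beside -0.0069, -0.0018 and -0.041 over all genes. The comparisons share libraries and are not independent of one another.

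Set against each other within a library, the paralogs changed places to different extents. These ratios of cpm are not corrected for transcript length unless stated, and are given as descriptions with no test. Values per kb divide by the union of all annotated exons of a gene (14269 bases for Smarca2, 6475 for Smarca4), which can be longer than its mRNA. The log2 ratio of Actl6b to Actl6a was -4.40, -3.96 and -3.64 in the pools at E11.5, -1.58, -1.72 and -1.93 at E14.5 and then 0.49, 0.22 and 0.34 at E16.5, a 20.4-fold shift that carried Actl6b past Actl6a. Per kb of exon, the ratio of the means was 0.0569, 0.272 and 1.16. The log2 ratio of Ss18l1 to Ss18 was -1.36, -1.22 and -1.07 at E11.5, 0.54, 0.34 and 0.34 at E14.5 and then 2.33, 2.06 and 2.00 at E16.5, a 10.2-fold shift that passed 0 on this scale by E14.5. Smarca2 stayed well below Smarca4. Its log2 ratio to Smarca4 was -4.03, -4.02 and -3.88 at E11.5, -2.51, -2.78 and -2.44 at E14.5 and then -2.09, -1.97 and -2.02 at E16.5, and per kb of exon Smarca2 was at 0.111 of Smarca4 at E16.5. The log2 ratio of Smarcc2 to Smarcc1 was -0.53, -0.77 and -0.53 at E11.5, -0.09, -0.13 and -0.29 at E14.5 and then 0.58, 0.60 and 0.63 at E16.5. None of these pairs overlapped between stages. The log2 ratio of the sum of Dpf1 and Dpf3 to that of Phf10 and Dpf2 was -1.29, -1.22 and -1.31 at E11.5. It was -1.04, -1.17 and -1.36 at E14.5, overlapping, and 0.35, 0.23 and 0.30 at E16.5. Dpf1 gave most of the first sum (77.3 cpm beside 12.4 for Dpf3 at E11.5, 152 beside 1.89 at E16.5). This ratio therefore does not show the fall of Dpf3.

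**Figure D2:**
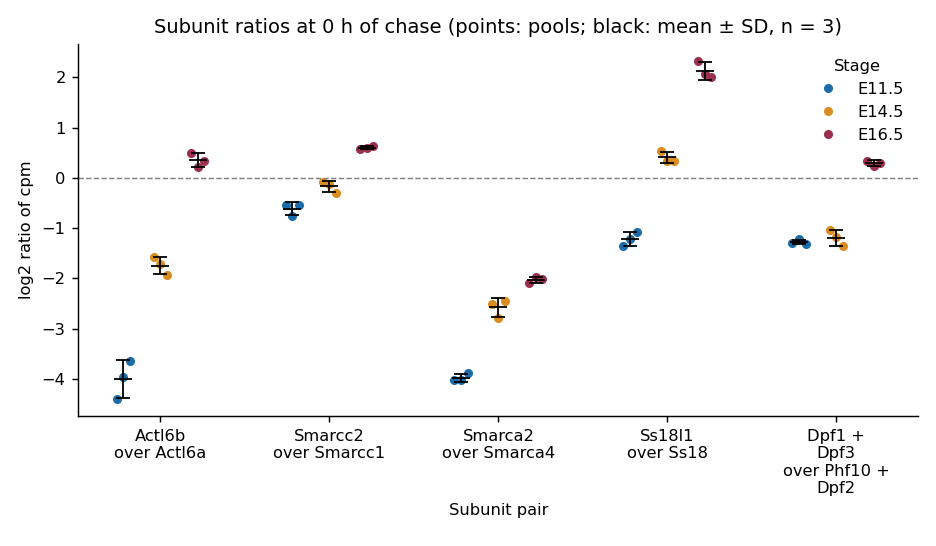
log2 ratio of cpm (y axis) of 5 subunit pairs (x axis) at 0 h of chase. Points are the 3 pools of a stage and black marks the mean ± SD. The dashed line marks equal cpm, which Ss18l1 over Ss18 had passed by E14.5 and Actl6b over Actl6a by E16.5, while Smarca2 over Smarca4 stayed below it.

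Per kb of exon, Smarca4 was the highest of the 10 subunits at each stage (96.7, 83.8 and 88.2 cpm per kb). At E11.5 Smarcc1 (47.3), Smarcc2 (43.8), Actl6a (34.9), Phf10 (20.2), Dpf1 (14.4) and Ss18l1 (8.91) followed in that order, with no overlap between neighbours. Dpf3 (2.93) and Smarca2 (2.79) overlapped, and Actl6b (2.02) was the lowest. At E14.5 Smarcc2 (46.8) lay above Smarcc1 (37.3), Phf10 (25.7) and Actl6a (24.6) overlapped, Ss18l1 (22.9) and Dpf1 (16.01) followed, and Actl6b (6.74) and Smarca2 (6.38) overlapped above Dpf3 (0.842). At E16.5 Smarcc2 (78.9) was followed by Smarcc1 (36.8) and Ss18l1 (36.6), which overlapped, and then by Dpf1 (28.2). Actl6b (14.02) overlapped Phf10 (12.8), and Phf10 overlapped Actl6a (12.1). Smarca2 (9.84) and Dpf3 (0.448) were the lowest. The place of Smarca2 depends on its long exon union. By cpm at E16.5, Smarca2 (140) lay above Phf10 (62.7), Actl6b (59.8) and Actl6a (46.9).

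The next comparison asked whether levels held still during the chase, since a half-life from labelled and unlabelled RNA is read most simply when they do. At E11.5, Actl6a was lower at 12 h than at 0 h in 3 of 3 pools (98.6 ± 12.0 against 136 ± 12.7 cpm, log2 fold change -0.29 ± 0.08, adjusted p = 0.0292). Smarcc2 (0.32 ± 0.06, 0.00599), Ss18l1 (0.32 ± 0.08, 0.0230) and Dpf1 (0.31 ± 0.10, 0.0428) were higher in 3 of 3 pools. These counts of 3 higher and 1 lower stand beside 10.3% and 8.18% of 18877 genes tested. Pools are counted by cpm, while the fold changes come from covered Ts after TMM scaling, and at E11.5 the measures differ. In cpm, Smarcc2 moved from 243 to 268, Ss18l1 from 38.7 to 42.1 and Dpf1 from 77.3 to 85.3. Smarca4 was lower in 3 of 3 pools by cpm, with a log2 fold change of 0.08 ± 0.06 that was not called. The E11.5 libraries at 12 h also held 29686 to 67623 cpm of Gm42418, against 3862 to 9482 at 0 h, and the part of this gene in the result was not tested. With the 8 h libraries in their place, where Gm42418 was at 3755 to 5102 cpm, Smarcc2 alone was called (0.22, adjusted p = 0.0398). Without replicate A, 0 subunits were called higher, and the call of Actl6a was lost without any 1 of the 3 pools.

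At E14.5, Actl6a (95.5 ± 3.59 to 79.3 ± 3.55 cpm, -0.26 ± 0.07, adjusted p = 0.0314) and Actl6b (28.8 ± 4.46 to 21.04 ± 2.95 cpm, -0.44 ± 0.13, adjusted p = 0.0472) were lower at 12 h in 3 of 3 pools, with 0 subunits higher by edgeR, where 1 had an unadjusted p under 0.05, and 1 by DESeq2 (6.29% of 18784 genes were higher and 5.63% lower). Leaving out any pool ended the calls of Actl6a and Actl6b. At E16.5, Dpf3 rose from 1.89 ± 0.16 to 3.34 ± 0.51 cpm (0.86 ± 0.21, adjusted p = 0.0138) and Smarca2 from 140 ± 8.28 to 151 ± 1.87 cpm (0.15 ± 0.05, adjusted p = 0.0385), with 0 called lower by edgeR or DESeq2, where 2 had an unadjusted p under 0.05 by each tool (13.1% of 18733 genes were higher and 11.4% lower). The count of 2 was 0 without replicate A or without replicate C.

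The wells of a pool hold the same cells, so the change was also fitted with the pool as a replicate block. In that paired fit the E11.5 counts stayed at 3 higher and 1 lower (17.8% and 16.1% of genes). At E14.5, 1 subunit was higher (Dpf1, 0.32, adjusted p = 0.00943) and 2 were lower (10.8% and 9.97%). At E16.5, 3 were higher, now with Smarca4 (0.10, adjusted p = 0.0270), and 2 were lower, Actl6a (-0.19, 0.00583) and Actl6b (-0.22, 0.00228) (18.7% and 17.1%). With the pool as a block, Actl6a was thus called lower over the chase at each of the 3 stages, in 3 of 3 pools each time.

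**Figure D3:**
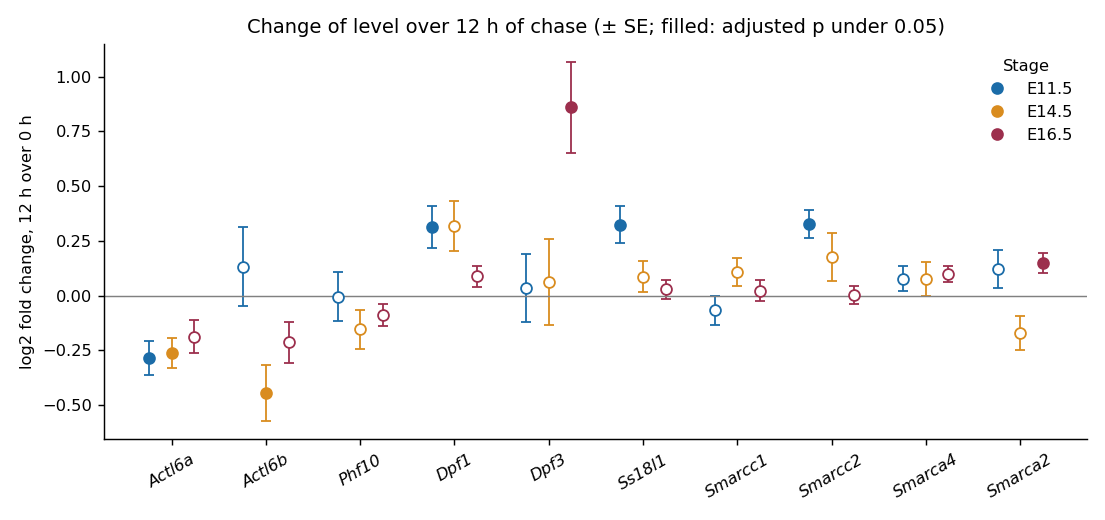
log2 fold change of each subunit at 12 h over 0 h of chase (y axis, ± SE of the fit without a block, 3 pools per group) by subunit (x axis) and stage (colour). Filled points have an adjusted p under 0.05. Actl6a lies below 0 at each stage, and Dpf3 at E16.5 is the highest point (0.86).

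Whether the change over the chase differed between stages was tested in a fit of the 0 h and 12 h libraries of all stages with the pool as a block (17224 genes). Between E11.5 and E14.5 the change of Actl6b dropped by 0.63 ± 0.12 (log2; adjusted p = 0.00216), that of Smarca2 by 0.33 ± 0.08 (0.00885) and that of Ss18l1 by 0.28 ± 0.07 (0.0192), beside 12.0% of genes called in either direction. From E11.5 to E16.5 the differences of Smarcc2 (-0.33 ± 0.08, 0.00707), Ss18l1 (-0.30 ± 0.07, 0.00904), Dpf3 (0.76 ± 0.21, 0.0166) and Actl6b (-0.37 ± 0.12, 0.0476) were called (16.3% of genes). Between E14.5 and E16.5, those of Smarca2 (0.35 ± 0.08, 0.0164) and Dpf3 (0.81 ± 0.21, 0.0368) were called (3.9% of genes). Without the block, edgeR called 0 subunits in each of these comparisons, where 3, 3 and 2 had an unadjusted p under 0.05, with the nearest adjusted p at 0.0608 (Smarca2, E14.5 against E11.5).

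Label content at 0 h was close to that of the library as a whole for most subunits. The rate summed over all genes was 1.18% ± 0.23 (SD, n = 3) at E11.5, 1.10% ± 0.08 at E14.5 and then 1.86% ± 0.06 at E16.5. The ratio of a subunit's rate to the library's changed with stage for some of them. Ss18l1 was at 0.78 ± 0.01 of the library rate at E11.5, 0.88 ± 0.06 at E14.5 and then 1.08 ± 0.02 at E16.5, Dpf1 at 0.82 ± 0.01, 0.83 ± 0.05 and 1.06 ± 0.02, and Actl6b at 0.72 ± 0.08, 0.76 ± 0.01 and 0.99 ± 0.13. Smarcc2 was at 0.91 ± 0.04, 0.86 ± 0.04 and 0.98 ± 0.02, and Smarca4, whose level did not pass the test, at 0.93 ± 0.07, 0.88 ± 0.03 and 1.04 ± 0.02. Smarca2 was at 1.01 ± 0.05, 1.04 ± 0.13 and 1.06 ± 0.07. Actl6a had its lowest ratio at E16.5 (0.95 ± 0.02, 0.99 ± 0.02 and 0.86 ± 0.04), as had Phf10 (1.04 ± 0.05, 1.07 ± 0.01 and 0.89 ± 0.07) and Ss18 (1.07 ± 0.01, 1.07 ± 0.06 and 0.81 ± 0.07). Dpf3, listed with the neuronal subunits, was also lowest at E16.5 (0.91 ± 0.14, 0.95 ± 0.14 and 0.85 ± 0.13), with a wide spread. Smarcc1 stayed at 1.02 ± 0.01, 1.02 ± 0.02 and 1.01 ± 0.02. These are values from 3 pools and were not tested.

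Actl6b kept its label through the early chase at the later stages. At E14.5 its conversion rate was 0.845%, 0.877% and 0.780% at 0 h and 0.737%, 0.880% and 0.857% at 4 h, still at 99.2% ± 11.4 of the start, and fell to 70.7% ± 6.91 at 8 h and 42.7% ± 10.5 at 12 h. At E16.5 it was 1.53%, 1.99% and 2.05% at 0 h and 1.65%, 2.08% and 2.03% at 4 h, 104% ± 4.41 of the start, then 70.5% ± 6.95 at 8 h and 41.5% ± 5.30 at 12 h. The rate summed over genes was at 53.7% ± 1.88 and 48.6% ± 1.03 of its start at 4 h, and at 23.7% ± 1.83 and 13.3% ± 0.09 at 12 h. At E11.5 the 3 pools of Actl6b diverged (95.6%, 51.8% and 46.5% of the start at 12 h). Actl6a at E16.5 kept 24.3% ± 1.89 of its label at 8 h and 26.5% ± 3.92 at 12 h, above the library's 13.3%, while at E11.5 it kept 15.6% ± 3.99, below the library's 23.4% ± 3.08. Ss18l1 kept 18.4% ± 4.75, 24.2% ± 1.73 and 8.86% ± 0.72 at the 3 stages.

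**Figure D4:**
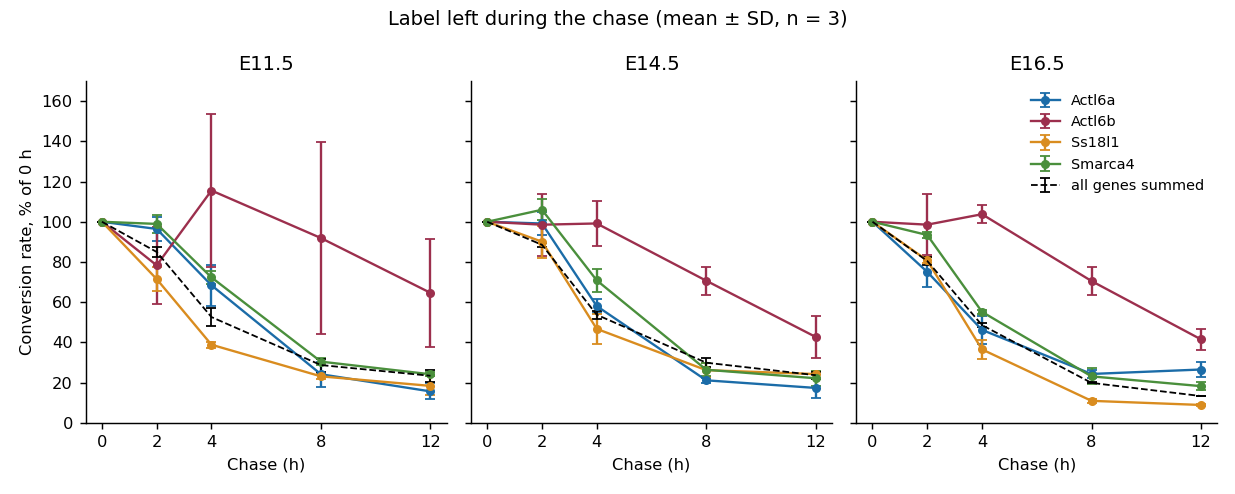
Conversion rate as a percentage of the 0 h rate of the same pool (y axis) against chase time in h (x axis) for Actl6a, Actl6b, Ss18l1 and Smarca4, with the rate summed over all genes dashed (mean ± SD, n = 3 pools). Actl6b stays near 100% to 4 h at E14.5 and E16.5, and its pools spread widely at E11.5.

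The half-life of Actl6b was 14.45 ± 2.83 h (11.4, 15.0 and 17.0 h) at E14.5 and 14.49 ± 1.72 h (14.9, 12.6 and 15.96 h) at E16.5. These values exceeded those of 99.3% of 10686 and 99.8% of 11850 measured transcripts. Transcripts with longer or poorly fitted half-lives are not in these sets, which keep those under 24 h with R2 over 0.6 in each pool. The fits of the single exponential were poor for Actl6b, with R2 between 0.61 and 0.80, and at E11.5 only 1 of 3 pools passed the filters. A log-linear fit without the 0 h point gave 7.93 and 7.91 h, and with R2 over 0.8 required in each pool Actl6b had no half-life at any stage. For Actl6a the half-life was 5.47 ± 0.84, 5.03 ± 0.09 and 4.40 ± 0.66 h at the successive stages. Without the 0 h point these were 3.63, 3.91 and 6.72 h, in the opposite order.

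The other subunits were measured at all 3 stages. Half-lives of Smarca2 were 6.50 ± 1.31, 6.01 ± 0.76 and 4.36 ± 0.43 h, and those of Smarca4 6.40 ± 0.13, 6.20 ± 0.55 and 4.90 ± 0.28 h, with overlapping pools at every stage for the ATPase whose level rose 3.62-fold and the one whose differences did not pass the test. Smarcc2 (6.08 ± 0.68, 7.26 ± 0.33 and 5.31 ± 0.17 h) exceeded Smarcc1 (4.07 ± 0.39, 4.08 ± 0.19 and 3.08 ± 0.03 h) in every pool. This order was not kept in the fit without the 0 h point, where Smarcc2 was at 4.54, 4.54 and 3.17 h and Smarcc1 at 4.54, 4.78 and 3.41 h. Phf10 was at 6.40 ± 1.02, 6.21 ± 0.44 and 4.94 ± 0.36 h, Dpf1 at 5.19 ± 0.97, 5.53 ± 0.61 and 3.56 ± 0.17 h, and Ss18l1 at 3.68 ± 0.20, 4.84 ± 0.52 and 3.26 ± 0.14 h. Without the 0 h point Ss18l1 was at 5.37, 5.56 and 3.11 h, so its place among the subunits depended on that point. Dpf3 was spread widely (3.24 to 7.04 h at E11.5, 2.29 to 4.67 h at E14.5, 2.56 to 3.86 h at E16.5). The median transcript of each stage was at 4.43, 4.60 and 3.48 h, and 7 of 9, 8 of 10 and 7 of 10 measured subunits lay above it.

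Most half-lives in hours were shorter at E16.5, as was the median transcript, so half-lives were compared after scaling within each pool. None of the 9 subunits with half-lives at all stages passed limma's F-test (adjusted p from 0.293 for Ss18l1 to 0.883 for Smarcc1, 0 at an unadjusted p under 0.05), beside 3.15% of 9505 transcripts. The differences of scaled half-life between E16.5 and E11.5 lay between -0.50 ± 0.27 (Smarca2) and 0.23 ± 0.20 (Smarcc2) SD units of the pool. In hours without scaling, 5 of the 9 were called (Dpf1, Smarca4, Smarcc1, Smarcc2 and Ss18l1), beside 24.2% of all transcripts. In the fit without the 0 h point, 1 of 8 was called (Actl6a), beside 5.08% of 6599 transcripts.

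**Figure D5:**
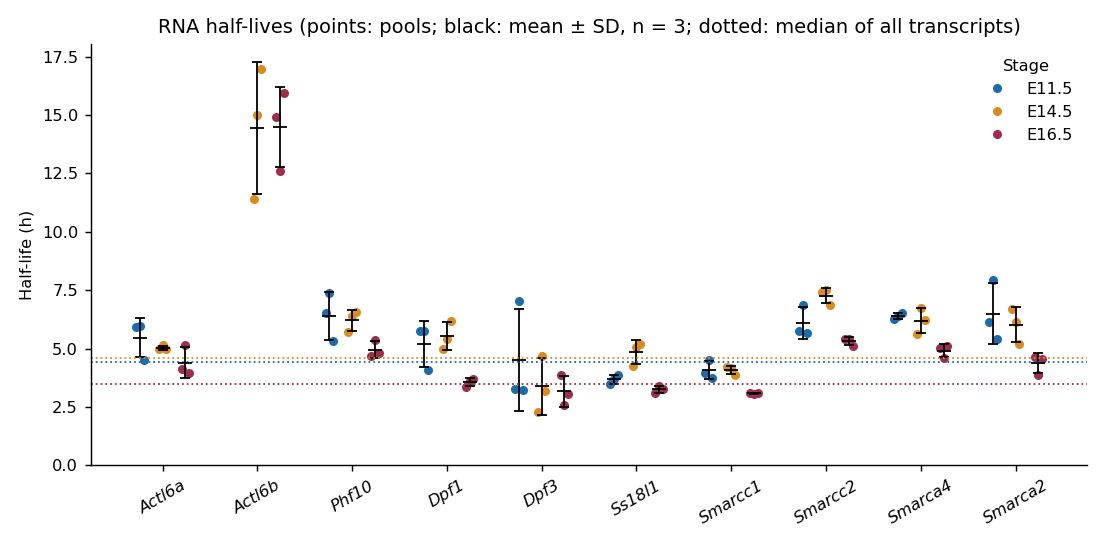
Half-lives in h (y axis) of the 10 subunits (x axis) by stage. Points are the 3 pools, black marks the mean ± SD and dotted lines the median of all transcripts at each stage. Actl6b at E14.5 and E16.5 stands above the other subunits, and has no E11.5 value because only 1 of 3 pools passed the filters.

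Genes known to act upstream of the exchange moved at different times. Rest fell from 44.5 ± 4.57 cpm to 24.5 ± 3.59 and 15.9 ± 1.60, by 1.40 ± 0.11 (log2) from E11.5 to E16.5 (adjusted p = 1.32e-07). The host transcript of Mir9-3, Mir9-3hg, fell from 144 ± 19.0 to 57.3 ± 7.03 and 45.3 ± 2.15 cpm (-1.59 ± 0.10, 2.03e-08), while C130071C03Rik, which spans Mir9-2, rose from 6.01 ± 0.67 to 11.8 ± 0.38 and 15.97 ± 1.14 cpm (1.51 ± 0.10, 2.81e-08). Mir124-2hg was at 6.74 ± 0.21, 6.27 ± 1.58 and 8.29 ± 0.99 cpm, higher at E16.5 than at E11.5 by 0.47 ± 0.17 (adjusted p = 0.0287) but not at E14.5 (0.0077 ± 0.17, adjusted p = 0.976). Its E16.5 against E11.5 call was lost without E11.5 replicate B or C or E16.5 replicate B (lowest value 0.37), and in the 12 h libraries the difference was -0.066 (adjusted p = 0.866). Mir124a-1hg lay between 0.0481 and 1.04 cpm and was not tested. Of the 5664 exonic bases of C130071C03Rik, 1399 also lie in exons of other genes, so reads from these bases cannot be assigned to a gene. These libraries measure host transcripts and not mature miRNAs.

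A list of 20 further BAF, PBAF and ncBAF subunits, Ss18 and Dpf2 among them, was followed beside the 10. At E14.5 against E11.5, 6 were higher and 4 lower, at E16.5 against E14.5, 7 and 4, and at E16.5 against E11.5, 10 and 4, with medians of -0.041, 0.10 and 0.13 (log2). The shares of all genes higher and lower in these comparisons were 25.1% and 23.5%, 24.1% and 25.4%, and 31.4% and 33.1%. Their half-lives had medians of 3.86, 4.07 and 2.83 h, with 6 of 20 above the median transcript at each stage, and 0 of 20 passed limma's F-test over stages (lowest adjusted p = 0.120, and 2 at an unadjusted p under 0.05). Beside Ss18, 4 passed 2-fold in at least 1 comparison. At E14.5 against E11.5, 1 was higher and 0 lower past 2-fold (8.14% and 8.0% of all genes). At E16.5 against E14.5 the counts were 0 and 1 (7.19% and 5.92%). At E16.5 against E11.5 they were 3 and 1 (14.7% and 14.6%). Bicral (16.2 ± 3.01 to 39.6 ± 0.75 cpm, 1.33 ± 0.12, adjusted p = 4.51e-07) and Bicra (59.8 ± 3.56 to 121 ± 2.84 cpm, 1.06 ± 0.14, 2.47e-05), paralogous subunits of the ncBAF form, rose from E11.5 to E16.5. So did Bcl11a (184 ± 10.3 to 362 ± 9.97 cpm, 1.01 ± 0.06, 1.02e-08), a zinc finger factor of cortical projection neurons. Its paralog Bcl11b, a marker of subcerebral projection neurons, was highest at E14.5 (122 ± 4.27, 256 ± 10.1 and 227 ± 7.59 cpm), with a rise of 1.18 ± 0.06 (1.36e-08) and then a fall of 0.21 ± 0.06 (0.0136).

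Over all 45 libraries, the genes whose log2 level (cpm + 1) ran most like that of Actl6a were Usp1 (Pearson's r = 0.987), Ptbp1 (0.985) and Pcgf5 (0.984), out of 12543 genes above 1 cpm in every library. For Actl6b they were Ly6h (0.988), Syt5 (0.987) and Ptpn5 (0.986). Actl6a and Actl6b had r = -0.89 with each other, Actl6a and Ss18 0.97, and Actl6b and Ss18l1 0.97. The 5 libraries of a pool share their cells and most of the spread lies between 3 stages, so these values describe the likeness of stage patterns.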

How the data were processed

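SLAM-seq libraries of 9 pools (3 per stage) at 5 chase times were analysed. The authors aligned reads with SlamDunk to mm10 and summed values over GENCODE exons. Handling of multimapping reads and strand is not given in the sources used here. Covered Ts were deposited as raw counts per gene, in which a T counts once for each read that covers it. In the 0 h library of E11.5 pool A, 329 M covered Ts came from 23.4 M reads. A fraction, converted over covered Ts, was deposited as each gene's conversion rate, printed as a percentage. For expression, CPM were deposited, and 100% of its values in each library were whole reads within 0.01 reads, so reads were recovered for an alternative. The authors' deposited half-life and R2 served to check the refit: 99.991% of 117534 refitted values were within 1% of theirs (11 were not).

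Stages at 0 h, and 12 h against 0 h, were compared on covered-T counts with edgeR 4.0.16 (quasi-likelihood F-test, TMM, more than 10 counts in all libraries compared). Benjamini-Hochberg adjustment was made over all genes. Half-lives were fitted as exp(-kx) to rates scaled to 1 at 0 h, kept at over 500 covered Ts, under 24 h and R2 over 0.6 in each pool, z-scored per pool and compared with limma 3.58.1. DESeq2 1.42.0 was an alternative. Letters pair the wells of a pool within a stage, by the protocol (correlation of deviations 0.0887 to 0.339 between 0 h and 12 h wells), and mark different embryos between stages (-0.0902 to 0.0777). The test of differences between stages in the chase change and the comparison with 8 h libraries were added after seeing the data. Scripts were tested on simulated data. Positions, exon lengths and 3′ UTRs are from GENCODE on GRCm38, the build of mm10, and miRNA sequences from RefSeq.

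The subunits, the lists and the genes named were chosen with earlier results of these data known. All 10 subunits, their paralogs, upstream genes, listed subunits past 2-fold and the 3 genes most like Actl6a and Actl6b are named. R 4.3.3, Python and matplotlib were used. Replicates are pools of different embryos, and 0 columns of sample values were left unmatched. Counts and rates carry counting error, which the depth limits most for Dpf3 and for Actl6b at E11.5.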

Additional observations from a re-analysis of the deposited data

Results flagged for a closer look

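The change of level over 12 h of chase differed between stages for 5 subunits when the pool was a block (edgeR's quasi-likelihood test of the difference itself, adjusted over 17224 genes). Against E11.5, the 12 h minus 0 h change at E14.5 was lower for Actl6b (-0.63), Smarca2 (-0.33) and Ss18l1 (-0.28), and at E16.5 it was lower for Actl6b (-0.37), Smarcc2 (-0.33) and Ss18l1 (-0.30) and higher for Dpf3 (0.76). Against E14.5, the change at E16.5 was higher for Dpf3 (0.81) and Smarca2 (0.35). Values are log2 differences. Of all genes, 12.0% were called for E14.5 against E11.5, 16.3% for E16.5 against E11.5 and 3.9% for E16.5 against E14.5. Without the block, 0 subunits were called in each comparison. Dpf3 was at 1.89 cpm at 0 h of E16.5. The comparisons against E11.5 rest on the 12 h libraries of that stage, which held 29686 to 67623 cpm of Gm42418, and the part of this in the differences was not tested.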

How the results depend on the processing

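Between stages at 0 h, counts of subunits higher or lower were within 1.5 times the reported ones under the alternatives run. With a pool left out, 4 to 6 were higher and 3 to 4 lower at E14.5 against E11.5. At E16.5 against E11.5, 3 to 4 were higher past 2-fold. A block by replicate letter left the counts at 4 higher and 3 lower, 5 and 3, and 5 and 4. Letters mark different embryos between stages, so this block is not a pairing. The exception to the limit of 1.5 times was the count past 2-fold from E14.5 to E16.5. Here 1 lower subunit became 0 in the 12 h libraries and in recovered reads, and 3 with filterByExpr and without a filter. Leaving out a pool gave 0 to 3 lower and 0 to 1 higher. For the 12 h against 0 h change, the 8 h libraries gave 1 higher and 0 lower at E11.5 and 0 lower at E14.5. At E14.5, DESeq2 and the replicate block each gave 1 higher. At E16.5, recovered reads and no filter each gave 1 higher, and the replicate block 2 lower. Leaving out a pool gave 0 to 2 higher and 0 to 0 lower at E11.5, 0 to 0 lower at E14.5, and 0 to 2 higher at E16.5. The paired fit raised the counts of subunits whose chase change differed from 0 to 3, 4 and 2 (E14.5 against E11.5, E16.5 against E11.5, E16.5 against E14.5). In the half-life test, hours without scaling gave 5 calls (24.2% of all transcripts) and the fit without 0 h 1 (Actl6a; 5.08%), against 0. In hours, the E16.5 minus E11.5 differences of Smarcc2 (-0.78) and Ss18l1 (-0.42) were below 0, against 0.23 and 0.22 SD units after scaling. Both subunits were called by the F-test over the 3 stages, which is not a call of this difference. The E16.5 minus E11.5 change of log2 ratios was 3.91 in the 12 h libraries for Actl6b over Actl6a (4.35 at 0 h), 3.01 for Ss18l1 over Ss18 (3.35), 0.82 for Smarcc2 over Smarcc1 (1.21, and 0.98 over 5 wells) and 1.40 for Dpf1 and Dpf3 over Phf10 and Dpf2 (1.57, and 1.39 over 5 wells). Some signs turned. Of uncalled differences, Smarcc1 from E14.5 to E16.5 was 0.020 in recovered reads, and Mir124-2hg from E11.5 to E14.5 was -0.23 in the 12 h libraries, -0.042 in recovered reads, -0.015 with the replicate block and -0.23 to 0.13 with a pool left out. The called rise of Mir124-2hg from E11.5 to E16.5 was -0.066 in the 12 h libraries. The cause of these shifts was not tested. Depth limits Dpf3 and Actl6b at E11.5 most.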
